A study of Mus musculus with 8 samples.

Results

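The genes described here encode the machinery that copies DNA in S phase: origin recognition and licensing factors, the MCM helicase and its activators, polymerases, the sliding clamp and its loader, single-strand binding protein, nucleotide supply enzymes, and the regulators that start S phase. The list of 44 symbols was chosen by function, with earlier results of these data known. Of these genes 42 had a row among the 19703 genes of the deposited table, and all 42 passed the filter of a mean normalized count of at least 10. Tyms and Clspn had no row in the table used here and were not analysed here.

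The samples were regulatory T cells (Tregs), CD4 T cells that carry FOXP3 and restrain immune responses, sorted from mice of the Foxp3-GFP strain, titled WT. All were stimulated through CD3 and CD28 by antibody-coated beads, with IL1B, IL6 and IL23 to favour the Th17 fate, and messenger RNA was sequenced on day 6. The groups were cultures that also received FcCD70, an Fc-tagged form of the CD27 ligand CD70 (3 libraries with a column, numbered 1 to 3), and untreated cultures (4 libraries, numbered 1 to 4). In all 8 labelled samples the treatment field names the other group than the title does. Groups were taken from the titles, as in the column names, and all directions given here depend on the titles being correct. The comparison addresses how a CD27 ligand alters Treg transcripts under Th17-favouring conditions. Libraries that share a number were compared as pairs because the authors' deposited table is a paired analysis by its name. Each log2 fold change below is therefore the mean of 3 pair differences, and the untreated library numbered 4, which has no partner with a column, does not enter it.

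DNA replication starts at sites bound by the origin recognition complex. There CDC6 and CDT1 load the ring-shaped MCM helicase in G1, and CDC45 and the GINS complex turn it into the active helicase at the G1/S boundary. Many of these genes are transcribed by E2F factors, which the retinoblastoma protein holds back until cyclin-dependent kinases release them. T cells stimulated through CD3 and CD28 divide fast, and replication transcripts are therefore used as a sign of how much of a culture is cycling. In bulk RNA, fewer cells in S phase and less of these transcripts per cell cannot be told apart.

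Reads assigned to genes ranged from 18183470 to 23359331 in the FcCD70 libraries and from 18159685 to 23527899 in the untreated ones. All 8 T cell and Treg markers reached 10 normalized counts, and Foxp3 had 5881, 2788 and 5948 normalized counts in the FcCD70 libraries numbered 1 to 3, against 6585, 5606, 4811 and 5126 in the untreated libraries numbered 1 to 4. The FcCD70 library numbered 2 was the lowest in Foxp3. Its differences from its untreated partner also ran along transcript length, as described below. Summaries of the pair numbered 2 are therefore also given apart from the others. The log2 fold changes include that pair unless the libraries numbered 2 are said to be left out. Markers of CD8 and NK cells summed to 155 to 201 normalized counts with FcCD70 and 118 to 188 untreated, with Ncr1 at 0 in every library. No myeloid or erythroid marker with a row (3 of 5 and 3 of 4) reached 10 in any library. B cell markers summed to 33063 to 37351 with FcCD70 and 33113 to 36397 untreated, nearly all of it Ighm. The part of these markers in the results below was not tested. The labels do not state whether separate mice were used, so the p-values reflect the spread among these libraries alone, and that spread may be technical.

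Start regions of the list held a short sequence, the E2F motif, more often than those of all genes. It was searched as the letters TTTCCCGC, TTTCGCGC, TTTGCCGC and TTTGGCGC on both strands, in windows from 250 bases before to 50 bases after each RefSeq transcription start (GRCm38.p6). Of the 36 members with a window, 13 (36.1%) held a match in at least 1 window, against 2.6% of all 27025 genes with a window. That background was not limited to the genes tested here and was not matched for base composition. Members were chosen by function and not by these letters, but many of these genes are transcribed by E2F factors. In the same windows CCAAT, the core of the NF-Y motif, was found in 22 of the 36 members (61.1%), against 41.1% of all genes, and TTTGAA, a motif of mitosis genes, in 5 (13.9%), against 20.2%. The 200 bases before the RefSeq start are shown for 5 members that the results return to, with E2F matches in capitals. Cdc6 (chr11:98907951-98908150, plus strand) and Orc1 (chr4:108579254-108579453, plus strand) are licensing genes with 1 match each, Mcm5 (chr8:75109309-75109508, plus strand) holds 2 matches that overlap on opposite strands, and Mcm6 (chr1:128359706-128359905, minus strand) holds 3, of which a pair overlap. Rrm2 (chr12:24708054-24708253, plus strand) has none of these letters in its window and is shown because its values followed the same order of libraries as those of Cdc6, Mcm5 and Mcm6.
Cdc6: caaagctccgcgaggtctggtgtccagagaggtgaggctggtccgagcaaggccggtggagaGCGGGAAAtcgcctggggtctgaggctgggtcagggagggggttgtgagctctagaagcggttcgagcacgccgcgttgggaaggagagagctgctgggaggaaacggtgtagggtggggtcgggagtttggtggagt
Orc1: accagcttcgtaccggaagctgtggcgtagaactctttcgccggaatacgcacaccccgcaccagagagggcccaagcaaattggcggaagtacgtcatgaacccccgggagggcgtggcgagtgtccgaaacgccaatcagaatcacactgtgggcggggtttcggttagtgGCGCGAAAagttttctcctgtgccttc
Mcm5: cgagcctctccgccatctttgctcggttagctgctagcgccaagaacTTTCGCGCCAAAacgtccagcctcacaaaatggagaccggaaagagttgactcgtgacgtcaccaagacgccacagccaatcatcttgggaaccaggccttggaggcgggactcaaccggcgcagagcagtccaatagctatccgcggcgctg
Mcm6: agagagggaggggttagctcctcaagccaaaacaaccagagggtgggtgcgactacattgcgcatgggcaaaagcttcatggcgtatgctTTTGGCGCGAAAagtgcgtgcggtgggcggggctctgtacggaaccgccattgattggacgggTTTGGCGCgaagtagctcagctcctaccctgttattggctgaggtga
Rrm2: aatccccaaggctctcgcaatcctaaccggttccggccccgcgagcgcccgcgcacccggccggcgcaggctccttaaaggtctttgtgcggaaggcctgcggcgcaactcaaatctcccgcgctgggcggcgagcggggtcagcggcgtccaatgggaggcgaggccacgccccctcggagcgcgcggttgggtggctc
A match is a description of these letters and not a measured binding site. In the GENCODE gene models Cdc6 begins at 98907801 and Orc1 at 108579423, so their matches lie inside those gene bounds. The order of libraries described below held for 9 of the 13 members with a match and 14 of the 23 without. In it the numbers 1 and 2 lie above 3 and 4 in the untreated group and above 3 in the FcCD70 group. The range of a member over the 7 libraries had a median of 0.82 (log2) in the 13 members with a match and 0.87 in the 23 without.

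Replication genes lay slightly lower in the FcCD70 libraries, and none passed the threshold. In limma's moderated test with the replicate number as a block and Benjamini-Hochberg adjustment over 11083 genes, 0 of 42 members had an adjusted p under 0.05, as did 0.0% of all genes. At an unadjusted p under 0.05 there was 1 member (Rrm2), or 2.38% of the list, against 1.7% of all genes tested (1.1% lower and 0.596% higher). The adjusted p in limma was 0.9998 for every member. The edgeR test and DESeq2 on the recovered reads also called 0 members, against 0.0% and 0.00902% of all genes, with 1 member each at an unadjusted p under 0.05 (1.52% and 1.27% of all genes). By the authors' deposited table, none of the members had an adjusted p under 0.05, as 0.0% of its 14728 genes did, and 3 had an unadjusted p under 0.05 (1.45% of its genes). Of the 42 members 32 had a log2 fold change (FcCD70 minus untreated, on log2(normalized count + 1)) below 0 and 10 above, with a median of -0.092. Over all genes tested 50.9% lay below 0 and the median was -0.0035. The members' values ran from -0.38 for Rrm2 to 0.25 for Gins4.

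Among the 3 pairs with columns, the lower levels lay mainly in the pair numbered 1. Within that pair 38 of 42 members were lower with FcCD70, with a median difference of -0.27, while 50% of all genes were lower. Differences of more than 0.5 (log2) downward were found there for 12 members, or 28.6%, against 8.53% of all genes. These were Cdc6, Cdt1, Mcm5, Mcm10, Gins1, Gins2, Pcna, Lig1, Rrm2, E2f1, Ccne1 and Chaf1a. Within the pair numbered 2 members divided evenly, 21 lower and 21 higher (median -0.003), and 50.3% of all genes were lower. Within the pair numbered 3, 18 were lower and 24 higher (median 0.040; 49.7% of all genes lower), and no member differed by more than 0.5 (7.27% of all genes). In all 3 pairs 8 members were lower (9.61% of all genes) and 2 were higher (9.03% of all genes). For the number 4, whose FcCD70 library was rebuilt from the authors' mean over 8 libraries, 32 members were lower (48.1% of all genes) and the median difference was -0.13. With both libraries numbered 1 left out, 15 of 42 members lay below 0 and the median was 0.032, and with both numbered 2 left out the count was 36 and the median -0.11. In fits without the block, 11 lay below 0 without the FcCD70 library numbered 3, 14 without the untreated library numbered 1, and 20 without the untreated library numbered 2. In these fits the groups hold different replicate numbers, and differences between numbers enter the values.

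**Figure D1:**
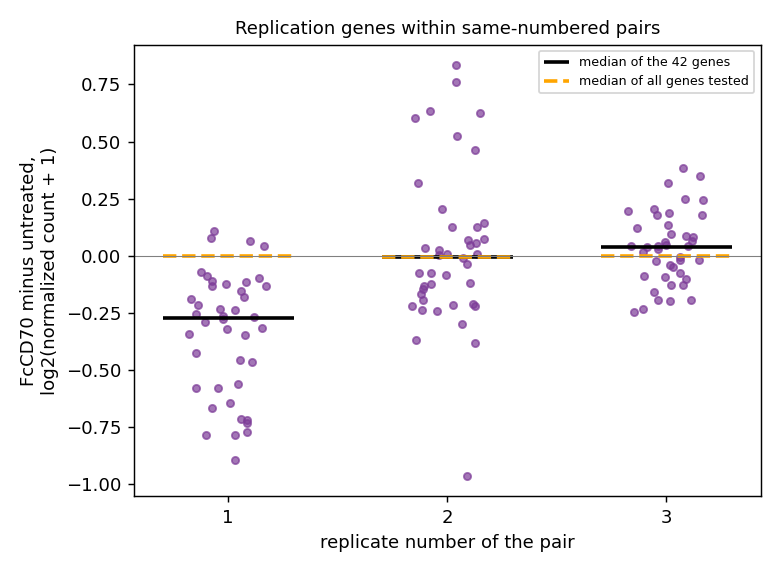
Difference between the FcCD70 and the untreated library of each same-numbered pair, as log2(normalized count + 1), for the 42 replication genes (1 point a gene). Black lines are medians of the 42 genes (-0.27, -0.003 and 0.040 for the pairs numbered 1, 2 and 3) and dashed orange lines those of all 11083 genes tested; most points lie below 0 only in the pair numbered 1.

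Among the licensing factors all 5 members lay below 0, with a median of -0.14, and none passed the threshold. Orc2, a subunit of the origin recognition complex (ENSMUSG00000026037, chromosome 1, 58462771 to 58505109, minus strand, GRCm38), had 1005, 946 and 961 normalized counts in the FcCD70 libraries numbered 1 to 3, against 1068, 1096, 1052 and 1024 in the untreated libraries numbered 1 to 4. Every FcCD70 value lay below every untreated one, although the gap was small. Its mean was 971 ± 30.5 with FcCD70 (SD, n = 3) and 1060.1 ± 30.0 untreated (SD, n = 4), and its log2 fold change was -0.14 (95% confidence interval, CI, -0.43 to 0.15). It was the 1 member whose groups did not overlap with FcCD70 lower (1.18% of all genes), and no member showed the opposite (1.34% of all genes). Cdc6, which loads the helicase with Cdt1, had 152, 235 and 79.4 normalized counts in the FcCD70 libraries and 263, 224, 81.6 and 149 in the untreated ones. Its values followed the replicate number, and its log2 fold change was -0.25 (95% CI -0.80 to 0.30). Orc1, the largest subunit of the complex, had a log2 fold change of -0.16, and Orc6, its smallest, one of -0.12. Cdt1, the loading factor that is destroyed as S phase begins, had 224, 449 and 551 normalized counts in the FcCD70 libraries and 335, 412, 421 and 453 in the untreated ones. It was the member that ran most against the list: its correlation with the median of the other members over the 7 libraries was -0.42.

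The 6 subunits of the MCM ring all lay below 0 (median -0.15). In 3 of 3 pairs 4 of them were lower with FcCD70 (9.61% of all genes). Most of the difference lay in the pair numbered 1, with median differences of -0.25, -0.079 and -0.020 in the pairs numbered 1, 2 and 3. Mcm5 (ENSMUSG00000005410, chromosome 8, 75109569 to 75128439, plus strand) had 1103, 1368 and 690.5 normalized counts in the FcCD70 libraries numbered 1 to 3, against 1813, 1450.1, 715 and 870.4 in the untreated libraries numbered 1 to 4. The libraries numbered 3 and the untreated one numbered 4 were low and the groups overlapped. Its pair differences were -0.72, -0.084 and -0.050, and its log2 fold change was -0.28 (95% CI -0.65 to 0.079). Without the block, where differences between replicate numbers enter, it was 0.12 when the FcCD70 library numbered 3 was left out and 0.069 when the untreated library numbered 1 was. With the block and a replicate number left out it ran from -0.40 to -0.067. Mcm6, the subunit with the highest count, had 3573, 3659.6 and 2882 normalized counts in the FcCD70 libraries and 4148, 3851, 2892 and 3154 in the untreated ones, with a log2 fold change of -0.10 (95% CI -0.37 to 0.17). Mcm2, Mcm3, Mcm4 and Mcm7 had log2 fold changes of -0.20, -0.20, -0.023 and -0.086. Mcm2 differed from its partners in shape: 1193, 1141 and 1203 normalized counts in the FcCD70 libraries and 1446, 1475, 1166 and 1213 in the untreated ones, so that the untreated libraries numbered 1 and 2 stood above the other 5.

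Helicase activators lay on both sides of 0, 4 below and 2 above. Gins4, a GINS subunit (ENSMUSG00000031546, chromosome 8, 23226616 to 23237659, minus strand), had 644, 878 and 539.7 normalized counts in the FcCD70 libraries numbered 1 to 3, against 609.6, 518, 575 and 687 in the untreated libraries numbered 1 to 4. The single high value was that of the FcCD70 library numbered 2, and the log2 fold change of 0.25 (95% CI -0.17 to 0.67) was -0.0057 without the libraries numbered 2. Gins1 had 40.4, 130.3 and 51.1 normalized counts in the FcCD70 libraries and 75.9, 83.8, 60.2 and 79.2 in the untreated ones, the widest range of the GINS genes, with the FcCD70 libraries numbered 1 and 2 at its ends. Gins2 and Gins3 had log2 fold changes of -0.20 and 0.055. Mcm10, which helps to start unwinding, and Cdc45, a part of the active helicase, had log2 fold changes of -0.15 and -0.054.

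All 5 polymerase and primase genes lay below 0 (median -0.13), and none was lower in all 3 pairs. Pole, the catalytic subunit of the leading-strand polymerase epsilon (ENSMUSG00000007080, chromosome 5, 110286306 to 110337474, plus strand), had 676, 388 and 322 normalized counts in the FcCD70 libraries numbered 1 to 3, against 858, 756, 281 and 409.9 in the untreated libraries numbered 1 to 4. The groups overlapped, and the FcCD70 library numbered 2 lay far under its partner, with a pair difference of -0.96, against -0.34 and 0.20 in the pairs numbered 1 and 3. Its log2 fold change was -0.37 (95% CI -0.85 to 0.11), and in the authors' deposited table, over 8 libraries and turned to FcCD70 minus untreated, it was -0.40 with an unadjusted DESeq2 p of 0.032 and an adjusted p of 0.99999. Pola2, the accessory subunit of polymerase alpha, had 824, 823 and 752 normalized counts in the FcCD70 libraries and 935, 972, 729 and 849 in the untreated ones, with a log2 fold change of -0.13. Pola1, its catalytic subunit, Prim1, the primase that lays down RNA primers, and Pold1, the catalytic subunit of polymerase delta, had log2 fold changes of -0.14, -0.042 and -0.070.

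The sliding clamp and its loader showed no common direction, with 2 members on each side of 0. Pcna, the clamp itself (ENSMUSG00000027342, chromosome 2, 132249162 to 132253314, minus strand), had 1368, 2535 and 1781 normalized counts in the FcCD70 libraries numbered 1 to 3, against 2171, 1645, 1762 and 1863 in the untreated libraries numbered 1 to 4. The untreated values lay inside the FcCD70 range, whose lowest and highest values were the libraries numbered 1 and 2, and the log2 fold change was -0.0086 (95% CI -0.48 to 0.46). Reads of Pcna may be shared with its annotated pseudogenes. Rfc5, a loader subunit, had 551, 505 and 392 normalized counts in the FcCD70 libraries and 650.3, 568, 347 and 456 in the untreated ones, with a log2 fold change of -0.076. Rfc3 and Rfc4, other loader subunits, had log2 fold changes of 0.074 and 0.057.

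Of the single-strand binding genes 1 lay below 0 and 2 above (median 0.16). Rpa1, the large subunit (ENSMUSG00000000751, chromosome 11, 75298166 to 75348324, minus strand), had 5036, 5483 and 5325 normalized counts in the FcCD70 libraries numbered 1 to 3, against 5488, 5209, 5392 and 5571 in the untreated libraries numbered 1 to 4. It varied less over the libraries than any other member, with a range of 0.15 (log2), and its log2 fold change was -0.023 (95% CI -0.30 to 0.25). Rpa2, the middle subunit, had 1009.8, 1373 and 793 normalized counts in the FcCD70 libraries and 965, 954, 776 and 875 in the untreated ones. It was higher in 3 of 3 pairs, with a log2 fold change of 0.21 (95% CI -0.13 to 0.54) and most of the difference in the pair numbered 2 (0.53). Rpa3, the small subunit, had 316, 591 and 289 normalized counts in the FcCD70 libraries and 359.8, 331, 323 and 355 in the untreated ones, where the FcCD70 library numbered 2 was again the single high value, and its log2 fold change was 0.16.

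Both genes that finish the lagging strand, and both ribonucleotide reductase genes, followed the order of libraries. The numbers 1 and 2 lay above 3 in the FcCD70 group and above 3 and 4 in the untreated group. Lig1, the ligase that joins Okazaki fragments (ENSMUSG00000056394, chromosome 7, 13277283 to 13311433, plus strand), had 796, 981 and 499 normalized counts in the FcCD70 libraries numbered 1 to 3, against 1189.5, 948, 479 and 575 in the untreated libraries numbered 1 to 4, with a log2 fold change of -0.16 (95% CI -0.53 to 0.22). Fen1, the flap nuclease that acts before it, had a log2 fold change of 0.0021. Rrm2, the regulated subunit of ribonucleotide reductase (ENSMUSG00000020649, chromosome 12, 24708241 to 24714146, plus strand), had 1157, 1301 and 656 normalized counts in the FcCD70 libraries numbered 1 to 3, against 1897, 1517, 754 and 799 in the untreated libraries numbered 1 to 4. The values at the number 3 and the untreated value at 4 were low in both groups and the groups overlapped, but each FcCD70 library lay below its partner, with pair differences of -0.71, -0.22 and -0.20. Its log2 fold change of -0.38 (SE 0.15, 95% CI -0.71 to -0.045) had an unadjusted p of 0.0302 and an adjusted p of 0.9998 in limma. In fits without the block, where differences between replicate numbers enter, the value was 0.10 without the FcCD70 library numbered 3 and 0.037 without the untreated library numbered 1. With the block and a replicate number left out it ran from -0.47 to -0.21. Rrm1, the large subunit, had 2401, 2471 and 1504 normalized counts in the FcCD70 libraries and 2861, 2684, 1785 and 1965 in the untreated ones. It too was lower in 3 of 3 pairs, with a log2 fold change of -0.21 (95% CI -0.48 to 0.062). Tk1, which salvages thymidine, and Dut, which clears dUTP, had log2 fold changes of -0.069 and 0.061.

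Of the 4 regulators of S phase entry 2 lay below 0 and 2 above. E2f1, an activating E2F factor (ENSMUSG00000027490, chromosome 2, 154559407 to 154569892, minus strand), had 145, 192 and 140.2 normalized counts in the FcCD70 libraries numbered 1 to 3, against 215, 220.0, 132 and 167 in the untreated libraries numbered 1 to 4. The groups overlapped, and the log2 fold change was -0.22 (95% CI -0.72 to 0.28). E2f2, another activator, had the highest counts of these genes, with 2748, 2428 and 2615 normalized counts in the FcCD70 libraries and 2969, 2369, 2312 and 2239 in the untreated ones and a log2 fold change of 0.034. Ccne1 and Ccne2, which encode the E cyclins, had log2 fold changes of -0.20 and 0.033. Chaf1a, the large subunit of the factor that puts histones onto new DNA (ENSMUSG00000002835, chromosome 17, 56040439 to 56072289, plus strand), had 349, 389 and 198 normalized counts in the FcCD70 libraries numbered 1 to 3, against 601, 409.7, 226 and 266 in the untreated libraries numbered 1 to 4. It was lower in 3 of 3 pairs, with a log2 fold change of -0.35 (95% CI -0.79 to 0.086). In fits without the block, where differences between replicate numbers enter, it had 0.077 without the FcCD70 library numbered 3 and 0.039 without the untreated one numbered 1. With the block and a replicate number left out it ran from -0.49 to -0.14. Chaf1b, its partner in that factor, had a log2 fold change of -0.064. Timeless, a fork protection factor, had 655, 509 and 449.7 normalized counts in the FcCD70 libraries and 728, 663, 438 and 590.1 in the untreated ones, with a log2 fold change of -0.17 (95% CI -0.51 to 0.18).

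**Figure D2:**
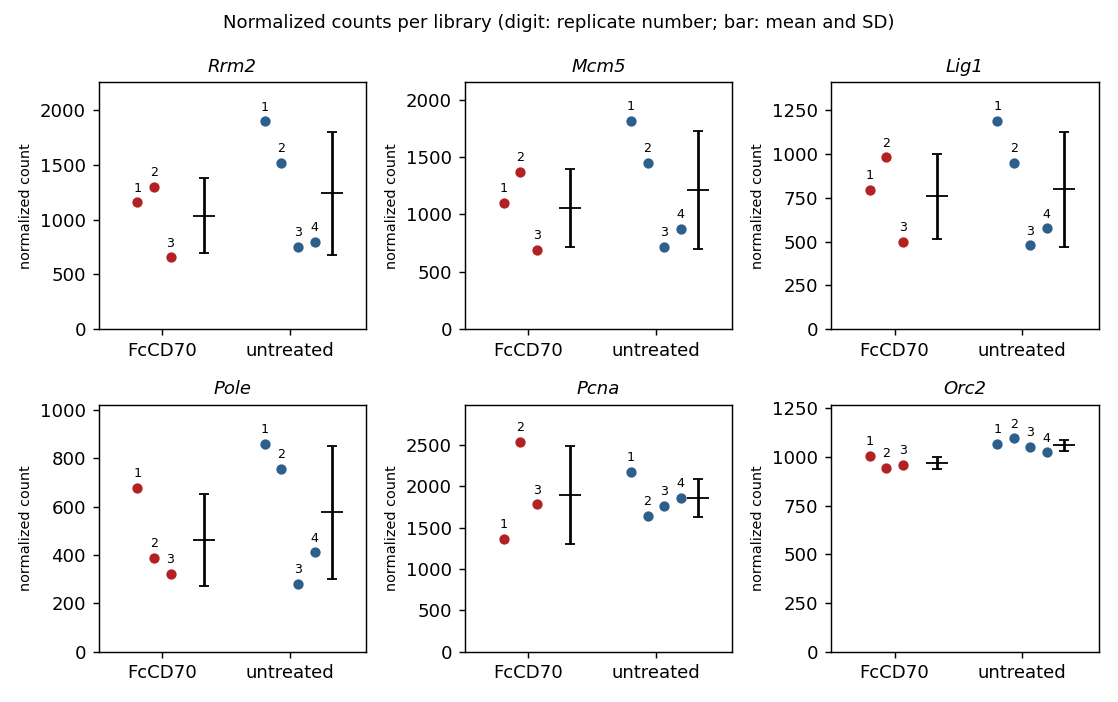
Normalized counts of 6 replication genes in each library, FcCD70 left and untreated right; digits are replicate numbers and bars the mean ± SD. Rrm2, Mcm5, Lig1 and Pole are high at the untreated numbers 1 and 2 and low at 3 in both groups, Pcna has its lowest and highest values in the FcCD70 libraries numbered 1 and 2, and the Orc2 groups do not overlap.

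Levels of replication genes followed the replicate number in both groups. The untreated library numbered 3 was the lowest of its group for 32 of 42 members and the one numbered 1 the highest for 29. In the FcCD70 group the library numbered 3 was the lowest for 30 members and the one numbered 2 the highest for 28. In 27 of 42 members the libraries numbered 1 and 2 both lay above the one numbered 3 in the FcCD70 group and above those numbered 3 and 4 in the untreated group, as in 14.6% of all genes. In the FcCD70 group alone this order held for 30 members (31.5% of all genes) and in the untreated group alone for 34 (29.4% of all genes). With the rebuilt FcCD70 library numbered 4 included, it held for 26 members (12.6% of all genes). Rrm2 at the number 1 was 1.76 times its level at the number 3 in the FcCD70 group and 2.52 times in the untreated group. For Cdc6 these ratios were 1.92 and 3.22, and for Mcm6 1.24 and 1.43. This order was known from earlier results of these data and is a description.

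The differences between numbers were tested by limma's moderated F test over the number terms, adjusted for treatment. It uses no split of the numbers, but it runs on the same libraries in which that order was already known. At an unadjusted p under 0.05 there were 23 of 42 members (54.8%), against 8.02% of all genes. Members were chosen with earlier results of these data known, and 20 correlate above 0.9 with the median of the others. The 23 are therefore not separate results, and the share is a description. After adjustment over all genes 0 members passed, as did 0.135% of all genes (15). Rrm2 came closest, with an F of 18.2 and an adjusted p of 0.0900 in limma. Mcm5, Lig1 and Rrm1 followed, with adjusted p of 0.151, 0.156 and 0.191 in the same limma test. By DESeq2's likelihood ratio test on the recovered reads 8 members passed (Ccne2, Cdc6, Chaf1a, Lig1, Mcm5, Pole, Rrm1 and Rrm2), among 2.14% of all genes, and by edgeR 0 members passed among 0.0% of all genes. The limma fit rests on 2 residual degrees of freedom. Leaving out a library numbered 1, 2 or 3 leaves fewer, with that number held by a single library. The count of members called moved with single libraries. It was 24 without the FcCD70 library numbered 2 and 32 without the untreated library numbered 2, with 1828 and 4269 genes called in all. Without the FcCD70 libraries numbered 1 or 3, or the untreated one numbered 3, it was 5, 4 and 3, and without the untreated library numbered 1 or 4 it was 0. The labels do not say what the replicate numbers share, so a batch, a date of culture or a mouse cannot be told apart.

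**Figure D3:**
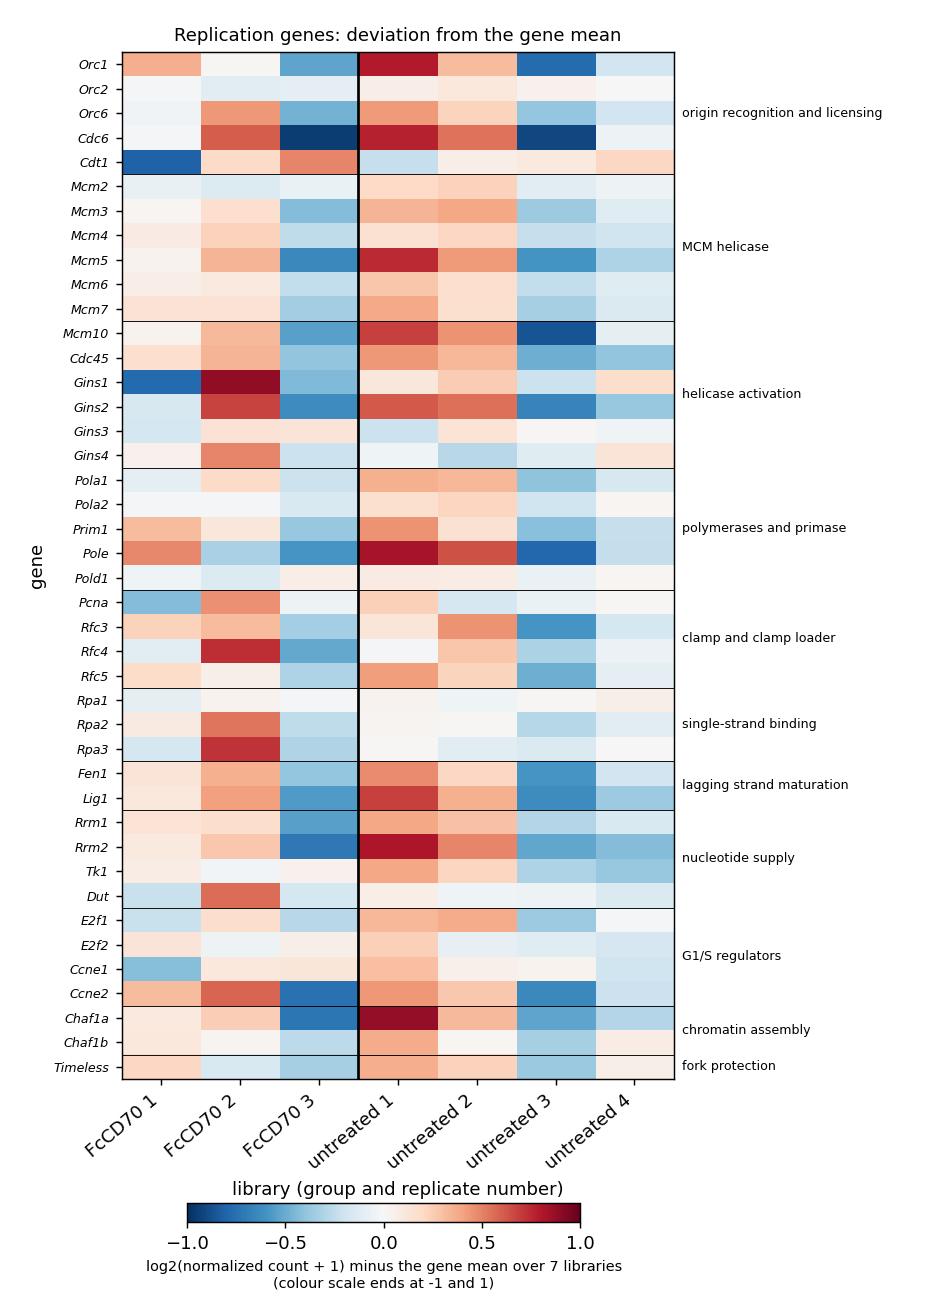
Deviation of each of the 42 replication genes from its own mean over 7 libraries, as log2(normalized count + 1), with genes grouped by role and FcCD70 libraries left of the line. Red (higher) predominates in the untreated libraries numbered 1 and 2 and in the FcCD70 library numbered 2. Blue (lower) predominates in both libraries numbered 3. The correlation with the median of the other members is under 0.5 for 12 members, and under 0 for Cdt1, Rpa1 and Gins3 among them.

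Members differed in how closely they followed the rest of the list. Pearson's correlation of a member with the median of the other 41 over the 7 libraries was above 0.9 for 20 members, among them Mcm5 (0.99), Mcm6 (0.99), Lig1 (0.99), Fen1 (0.98) and Rrm2 (0.98). These points share library, depth and scaling, and the values are a description. It was under 0.5 for 12 members: Orc2, Cdt1, Gins1, Gins3, Gins4, Pold1, Pcna, Rpa1, Rpa3, Dut, E2f2 and Ccne1. The size of the swings differed as well, with 16 members ranging over more than 1 (log2) across the 7 libraries and 8 over less than 0.5. Cdc6 had the widest range, 1.72, and Rpa1 the narrowest, 0.15, while the MCM ring genes ran from 0.37 for Mcm2 to 1.39 for Mcm5.

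Differences within the pair numbered 2 followed transcript length. Over the 42 members Spearman's rho between the pair difference and the length of the principal transcript was -0.50 for that pair, against -0.083 for the pair numbered 1 and 0.13 for the pair numbered 3. Over the 11026 genes tested with a length it was -0.54, 0.15 and 0.20 for the pairs numbered 2, 1 and 3. These are descriptions across genes, which are not independent replicates and share the library. At the short end Rpa3 (670 bases) was higher in the FcCD70 library numbered 2 by 0.83 and Gins4 (1349 bases) by 0.76. At the long end Pole (7163 bases) was lower by 0.96 on the log2 scale (difference -0.96). More than 0.5 higher in that pair were Gins1, Gins4, Pcna, Rpa2, Rpa3 and Dut, or 14.3% of the members against 13.6% of all genes, and more than 0.5 lower was Pole, or 2.38% against 15.9% of all genes. The part of transcript length in the fold changes of these members was not tested.

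**Figure D4:**
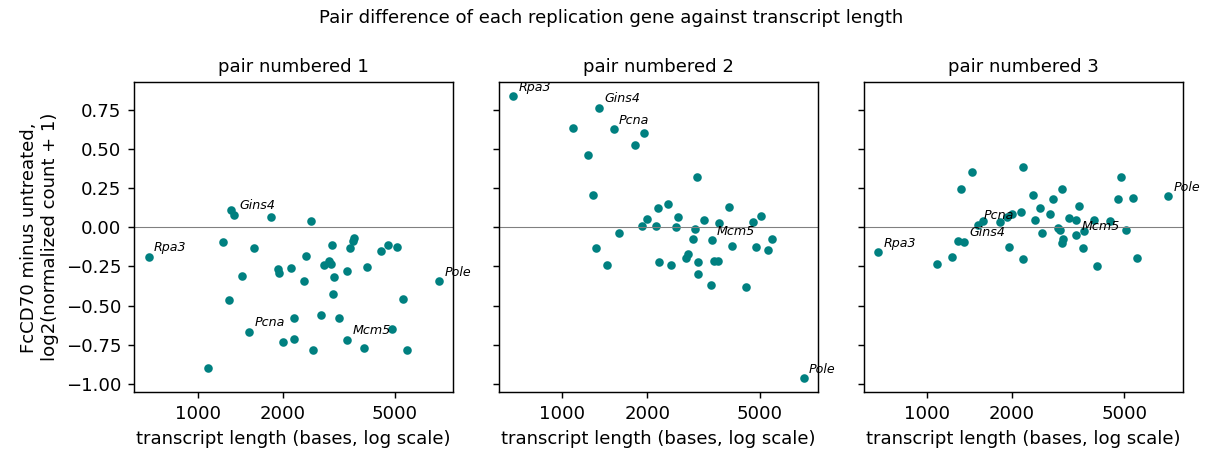
Pair difference (FcCD70 minus untreated, log2(normalized count + 1)) of each of the 42 replication genes against the length of its principal transcript on a log axis, for the pairs numbered 1, 2 and 3. The points slope downward in the pair numbered 2 (Spearman's rho -0.50), from Rpa3 at 0.83 to Pole at -0.96, and not in the others.

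Levels were compared between genes as normalized counts per kilobase of principal transcript, averaged over the 7 libraries. Pcna stood highest at 1235 ± 249 (SD, n = 7), followed by Mcm6 at 1186 ± 168, Rpa1 at 1055 ± 36.5 and Mcm4 at 924 ± 137. The lowest levels were those of Orc1, at 30.5 ± 11.4, Gins2, at 31.3 ± 12.8, and Mcm10, at 40.2 ± 14.3. The ranges of all neighbours in this order overlapped. Within the MCM ring the order of transcript levels was Mcm6, Mcm4, Mcm7 (618 ± 117), Mcm3 (565 ± 124), Mcm2 (375 ± 40.8) and Mcm5 (338 ± 124). Among these the lowest Mcm6 and Mcm4 values, 990.3 and 769.6 per kilobase, lay above the highest Mcm2 and Mcm5 values, 438 and 536. Of the licensing factors Orc6 (369.7 ± 94.3) and Orc2 (287 ± 15.5) lay above Cdc6 (66.1 ± 28.8) and Orc1. E2f2, at 533 ± 55.5, exceeded E2f1, at 63.3 ± 13.3, in every library. Exons of 15 members, among them Orc2, Pole, Lig1, Chaf1a and Timeless, overlap an exon of a gene on the opposite strand, and whether counting used the strand is not given in the sources used here.

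Other genes of DNA replication also lay below 0 more often than above. Of 72 tested genes from a list of further replication factors, 51 (70.8%) lay below 0 and 21 above, against 50.9% of all genes below 0, the median was -0.087 (log2 fold change), and none passed the threshold in limma. At an unadjusted p under 0.05 there were 7, all lower with FcCD70, against 1.7% of all genes (1.1% lower). The smallest p-values belonged to Ticrr, which helps to load CDC45 at origins, Cad, which makes pyrimidines, and E2f8, a repressive E2F factor. Ticrr had 224, 159.5 and 154 normalized counts in the FcCD70 libraries and 393, 371, 160.2 and 179 in the untreated ones, and its log2 fold change was -0.69 (95% CI -1.24 to -0.14). For E2f8 the values were 222, 101 and 85.5 with FcCD70 and 438, 275, 80.6 and 149 untreated, with a log2 fold change of -0.78 (95% CI -1.44 to -0.12). Cad had 978, 871 and 1366 normalized counts in the FcCD70 libraries and 1396, 1227, 1472 and 1425 in the untreated ones, with a log2 fold change of -0.37, and its adjusted p in limma was 0.9998, as it was for both other genes. In the test between replicate numbers 1 gene of this list passed, Ccna2, the S phase cyclin, against 0.135% of all genes. Its adjusted p was 0.0411 in limma, close to the threshold, and by edgeR 0 of all genes passed. Ccna2 had 1276, 1413 and 531 normalized counts in the FcCD70 libraries and 1743, 1487, 587 and 784 in the untreated ones.

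Mitosis genes lay below 0 as well and showed the same order of libraries. Of 30 mitosis genes 28 lay below 0 with FcCD70 (median -0.29; medians of -0.57, -0.34 and -0.018 in the pairs numbered 1, 2 and 3). None passed the threshold in limma, and Hmmr, a spindle protein, had the smallest p, with 580.0, 461 and 256 normalized counts in the FcCD70 libraries and 831, 783, 319 and 409 in the untreated ones and a log2 fold change of -0.53 (95% CI -0.90 to -0.17). The numbers 1 and 2 lay above 3 and 4 in the untreated group and above 3 in the FcCD70 group for 29 of 30 mitosis genes. This order held for 14.6% of all genes. With the rebuilt FcCD70 library numbered 4 included, it held for 28 mitosis genes, against 12.6% of all genes. Bub1, a spindle checkpoint kinase, had 487, 562 and 140.2 normalized counts in the FcCD70 libraries and 624, 583, 189 and 296 in the untreated ones, with the number 3 low in both groups. Bub1, Cenpf, Birc5 and Nusap1 passed the test between numbers, where 0.135% of all genes passed. Their adjusted p in limma, 0.0411, 0.0458, 0.0494 and 0.0468, lay close to the threshold. The same comparison called 0 of all genes by edgeR and 237 by DESeq2. Of 11 tested G1 cyclin, CDK inhibitor and Myc genes 5 lay below 0 (median 0.019). The order of libraries held for 1 of them, and for 0 with the rebuilt library included. Cdk6, a G1 kinase, had the smallest p there, with 2119, 1338 and 2399.5 normalized counts in the FcCD70 libraries and 2260.2, 2756, 2648 and 2330.0 in the untreated ones and a log2 fold change of -0.43. The FcCD70 library numbered 2 was its lowest. Differences between the lists were not tested.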

How the data were processed

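Messenger RNA of 8 labelled samples was sequenced from a stranded kit, per the labels' protocols. The submitters' processing notes name TopHat2 (version 2), SAMtools, HTSeq, DESeq2 and GRCm38.p4. The deposited table holds signal values, which are read counts divided by size factors by the authors, for 7 libraries, with the authors' mean over 8. It also holds the authors' deposited log2 fold changes, test score and p-values from DESeq2, coded untreated minus FcCD70 and given here with the sign turned. No column of the FcCD70 sample numbered 4 is in it, and its values were rebuilt from that mean for an alternative. All values (100% within a tolerance of 0.01) were whole multiples of what 1 read is worth, which gave reads for edgeR and DESeq2. The design allowed for raw counts or normalized values. Normalized values were found, so limma was the main test.

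Genes with a mean of at least 10 (11083) were fitted with limma 3.58.1 in R 4.3.3 on log2(value + 1), with an intensity trend and terms for treatment and replicate number. Calls used a Benjamini-Hochberg adjusted p of 0.05. The fit has 2 residual degrees of freedom and was tested on simulated data. Alternatives were other pseudocounts, no filter, TMM scaling, edgeR 4.0.16, DESeq2 1.42.0, no block, left-out libraries and the 8 libraries. Members, role classes and lists were chosen with earlier results of these data known. Named in full were, per role class, the members with the smallest p and the highest mean, and other genes past the threshold or with the smallest p. Values in every library are also given for Cdc6, Cdt1, Mcm2, Gins1 and Rpa3, which lie outside that rule. Their fold changes under the alternatives are not reported. Transcript lengths are from GENCODE M21 (GRCm38) and start regions from RefSeq. Depth was 18159685 to 23527899 reads per library. Counting error is set by a gene's own reads and is widest for low members, such as Gins1 with 40.4 normalized counts in the FcCD70 library numbered 1. Markers of T, B, CD8 and NK, myeloid and erythroid cells were summed.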

Additional observations from a re-analysis of the deposited data

How the results depend on the processing

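For FcCD70 against untreated, 0 genes were called in the main limma fit and 1 by DESeq2, and leaving out libraries gave 0 to 19, the highest without the libraries numbered 2. That fit rests on fewer residual degrees of freedom than the main fit. Between replicate numbers 15 genes were called in the main fit, 0 with no filter on low values, 2 with TMM scaling, 0 by edgeR, 237 by DESeq2 and 117 with the rebuilt library included. Leaving out single libraries gave 29 to 4269. Of the members, 0 were called between numbers in the main fit, 8 by DESeq2, 4 with the rebuilt library and 0 to 32 with a library left out. The median log2 fold change of the members ran from -0.16 to 0.096 with libraries left out, and the count of members below 0 from 11 to 38. In the fits that kept the block, the median ran from -0.16 to 0.032 and the count from 15 to 36. Fits without the block do not remove differences between replicate numbers. Where their groups hold different numbers, these differences enter the values. The part of this in the ranges was not tested.

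Of the 17 members named in full by the rule of smallest p and highest mean, 11 changed sign in at least 1 alternative. With the rebuilt library Pcna had 0.0065. Over the fits with libraries left out, the log2 fold change ran from -0.49 to 0.077 for Chaf1a, -0.038 to 0.17 for E2f2, -0.011 to 0.42 for Gins4 and -0.26 to 0.24 for Lig1. It ran from -0.40 to 0.12 for Mcm5, -0.14 to 0.058 for Mcm6, -0.32 to 0.32 for Pcna and -0.21 to 0.10 for Rfc5. It ran from -0.071 to 0.028 for Rpa1, -0.26 to 0.096 for Rrm1 and -0.47 to 0.096 for Rrm2. Their adjusted p lay between 0.0809 and 1 over all alternatives. Other pseudocounts, TMM scaling, edgeR and DESeq2 changed the sign of none of the 17. The ranges above pool fits with the block, each without a replicate number, and fits without the block, each without a single library. With the block, Rrm2 ran from -0.47 to -0.21, Rrm1 from -0.25 to -0.18 and Mcm5 from -0.40 to -0.067. Mcm6 (-0.14 to -0.039) and Chaf1a (-0.49 to -0.14) also kept their sign there. E2f2, Gins4, Lig1, Pcna, Rfc5 and Rpa1 changed sign with the block too.

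Deviations from the group means correlated within same-numbered libraries by 0.303, 0.0144 and 0.435 for the numbers 1, 2 and 3, but pairs with different numbers reached 0.255 (FcCD70 1 with untreated 2) and 0.347 (FcCD70 3 with untreated 4). For FcCD70 1 and FcCD70 3 the same-numbered library had the highest correlation of the untreated ones, by a small margin. For FcCD70 2 the highest was 0.0263, with untreated 1. A tie specific to a shared number was not tested. The block was kept because a DESeq2 fit with the number term gave the fold changes of the authors' deposited table (r across genes 0.99997, against 0.881 without it). Without the replicate block 0 genes were called for FcCD70, 28 of 42 members lay below 0 and their median was -0.058, and no call changed.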
